A study of Mus musculus with 5 samples.

Results

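Chemokine ligands are small secreted proteins that guide leukocytes, and their transcripts were followed here in livers of mice given the macrophage growth factor CSF1. Every gene symbol of the form *Ccl*, *Cxcl*, *Cx3cl1* or *Xcl1*, together with *Pf4* and *Ppbp*, was taken from the transcript rows that carried 1 gene symbol, and a gene with several rows was represented by the brightest. This gave 36 chemokine genes of the 18820 named genes on the array. All mice were adult C57BL/6 animals injected under the skin on 4 consecutive days and culled on day 5. There were 2 control mice given phosphate-buffered saline (PBS) and 3 mice given CSF1-Fc, in which pig CSF1 is fused to a part of pig immunoglobulin that slows its clearance. RNA of the whole liver of each mouse was hybridised to 1 Affymetrix Mouse Gene 1.1 ST array, so the 5 arrays came from 5 livers.

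A chemokine binds a receptor with a seven-helix fold on the leukocyte surface, and the cell then moves up the gradient of ligand. CC chemokines mostly act on monocytes, eosinophils, dendritic cells and T cells, and CXC chemokines on neutrophils, activated T cells and B cells. In liver, macrophages (Kupffer cells among them), sinusoidal endothelium, stellate cells and hepatocytes are all known sources. CSF1 drives the survival and proliferation of cells of the macrophage lineage, and *Csf1r*, its receptor, marks them. The comparison asked which of these ligands differed between livers with and without CSF1-Fc, and which leukocytes they are known to draw.

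The tissue label was borne out by its markers. All 10 hepatocyte genes tested, such as *Alb*, *Apoa1* and *Ahsg*, stayed bright and none passed the test (the dimmest, *Fga*, had mean log2 intensities of 11.06 and 10.69), with a sum of linear intensities of 70204 to 71106 in PBS livers and 66284 to 70811 in CSF1-Fc livers. The 9 macrophage markers were all higher after CSF1-Fc, with a summed intensity of 3879 to 3983 in PBS livers and 15847 to 16753 in CSF1-Fc livers. The 5 Kupffer cell markers were all higher as well, at a sum of 3266 to 3829 against 14036 to 14781. More cells of a type and more RNA per cell cannot be told apart in whole tissue, and the part of either in the chemokine changes was not tested. Median intensity was between 31.1 and 33.0 on the 5 arrays, and the log2 values correlated at 0.991 within PBS, 0.983 to 0.990 within CSF1-Fc and 0.960 to 0.973 across the groups.

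After CSF1-Fc, 14 of the 36 chemokine transcripts rose, 1 fell and 21 did not pass the test. The test was limma on log2 intensity over all 35556 rows of the array, with Benjamini-Hochberg adjustment and calls were made at an adjusted p under 0.05. Those that rose were 38.9% of the chemokines, where 8.34% of all named genes were higher, and the single fall stands beside 3.95% of named genes that were lower. Over the 36 the log2 fold change had a median of 0.30, where that of all named genes was -0.08. In 17 chemokines, or 47.2%, all 3 CSF1-Fc livers lay above both PBS livers, an order that 18.2% of named genes showed. The opposite order, with all CSF1-Fc livers below, was seen in 3 chemokines and in 29.3% of named genes. The 16 remaining chemokines overlapped between the groups. With 2 mice against 3 an exact permutation test cannot go below 0.1, so the calls rest on a spread shared across rows, and without that sharing limma called none of the 36.

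The rises were unequal in size and spread over several kinds of chemokine. *Ccl24* rose most, by 4.45 on the log2 scale, followed by *Pf4* at 3.60, *Ccl6* at 3.48, *Ccl2* at 2.71 and *Ccl7* at 2.57. The other 9 had log2 fold changes from 0.67 for *Xcl1* to 1.85 for *Ccl3*. No filter on low values was applied, and all 36 were tested. In 15 chemokines the mean lay under 5.007, the median log2 value of all rows, in both groups, and none of these passed. For *Ccl7*, *Ccl3* and *Xcl1* only the PBS mean was that dim, so the sizes of their rises are uncertain. The PBS means of *Ccl24* (5.12), *Pf4* (5.05) and *Ccl2* (5.16) were only just above that median, so the sizes of these rises are uncertain too. With a pseudocount of 16 the log2 fold change was 3.915 for *Ccl24* and 2.257 for *Ccl2*.

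**Figure D1:**
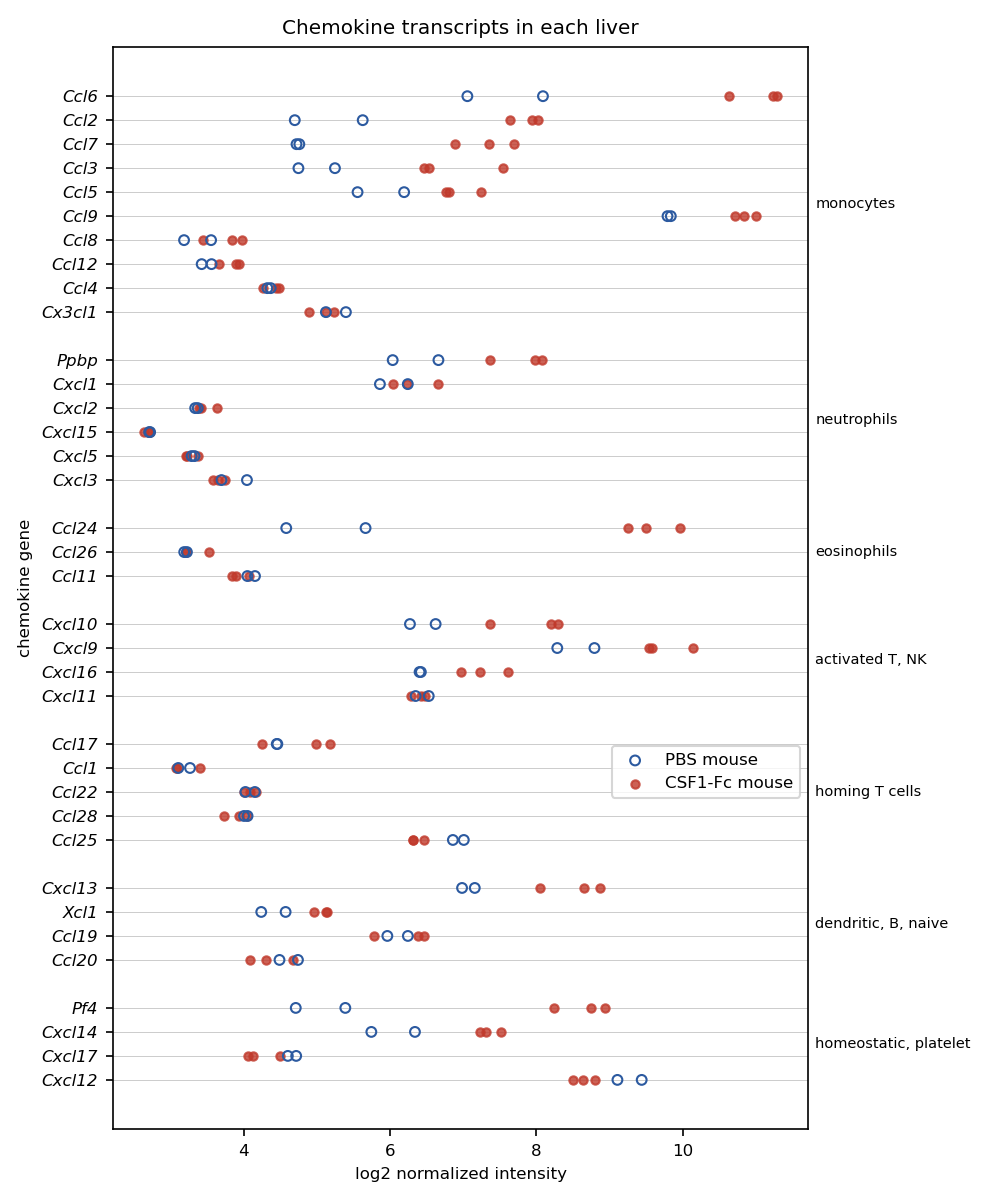
Log2 normalized intensity (x axis) of the 36 chemokine transcripts (y axis) in each liver, with open circles for the 2 PBS mice and filled circles for the 3 CSF1-Fc mice. Genes are grouped by the leukocytes they are known to draw, and the sets of circles are clearly apart for *Ccl24*, *Pf4*, *Ccl6*, *Ccl2* and *Ccl7*, while most of the dim transcripts overlap.

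**Figure D2:**
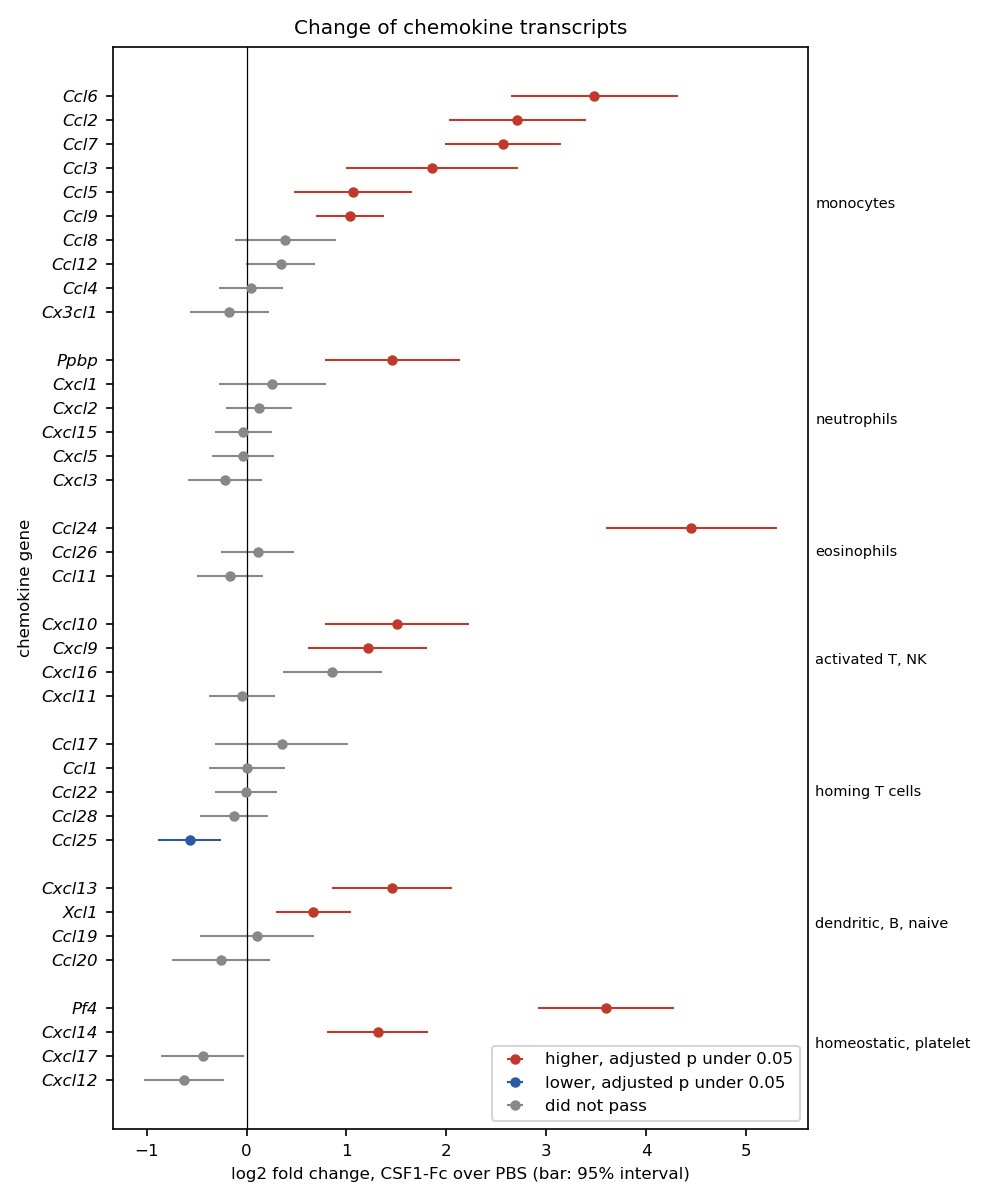
Log2 fold change of CSF1-Fc over PBS (x axis) for each of the 36 chemokine transcripts (y axis), with bars for the 95% interval from limma. The 14 transcripts that rose are red, *Ccl25* is blue as the 1 that fell, and the 21 that did not pass are grey.

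Promoter sequence was available for 25 of the 36 chemokines in the RefSeq table used (mouse build GRCm38.p6), and for 10 of the 14 that rose. The windows are the 250 bases before the start site. Of the chemokines that rose, *Ccl24*, *Ccl2*, *Ccl7* and *Ccl5* had no window. The windows of *Ccl6* and *Xcl1* held none of the motifs searched. Shown here are the windows of the chemokines with the largest rises in which a searched motif was found, so that the sequence can be set beside the values given further on. Capitals mark motif matches. In *Pf4* (chr5:90772185-90772434, plus strand) they mark a match to the PU.1 motif GAGGAA on the opposite strand, at -8 to -3 from the start. In *Ccl3* (chr11:83649379-83649628, minus strand) they mark another such match at -33 to -28. In *Cxcl10* (chr5:92348890-92349139, minus strand) they mark, from the 5′ end, an interferon-stimulated response element (ISRE) at -213 to -204, an NF-kB match at -159 to -150, a pair of overlapping NF-kB matches from -104 to -94, and an AP-1 match at -74 to -68.
Pf4: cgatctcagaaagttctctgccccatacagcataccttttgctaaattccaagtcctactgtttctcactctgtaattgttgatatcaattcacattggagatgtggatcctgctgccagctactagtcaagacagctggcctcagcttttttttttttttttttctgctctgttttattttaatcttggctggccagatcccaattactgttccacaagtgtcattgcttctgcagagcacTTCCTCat
Ccl3: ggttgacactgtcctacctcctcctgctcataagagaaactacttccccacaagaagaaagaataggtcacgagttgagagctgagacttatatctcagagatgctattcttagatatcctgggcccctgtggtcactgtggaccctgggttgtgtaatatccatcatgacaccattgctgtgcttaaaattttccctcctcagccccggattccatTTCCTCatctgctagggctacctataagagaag
Cxcl10: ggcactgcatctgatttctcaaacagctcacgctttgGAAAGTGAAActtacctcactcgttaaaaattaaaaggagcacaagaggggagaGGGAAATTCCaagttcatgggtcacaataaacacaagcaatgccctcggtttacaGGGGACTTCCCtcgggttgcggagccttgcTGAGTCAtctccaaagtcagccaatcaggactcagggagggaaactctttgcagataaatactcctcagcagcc

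PU.1 is a transcription factor of the macrophage and B cell lineages, NF-kB and AP-1 act downstream of inflammatory receptors, and the ISRE is bound by interferon-regulated factors. Both strands were searched. The PU.1 letters GAGGAA were present in 7 of 26 chemokine windows, which include a pair of *Ccl25* windows, and in 23.3% of all 32851 windows of the table. The NF-kB consensus was present in 7 of 26 windows against 7.25% of all, and the ISRE letters GAAANNGAAA in 3 against 2.98%. AP-1 (TGANTCA) was found in 3 of 26 windows against 6.75% of all, and these were the windows of *Ppbp*, *Cxcl10* and *Ccl9*, which all rose. GAS (TTCNNNGAA) was in 2 windows against 7.02% and the TATA box TATAAA in 10 against 12.4%. Among the 10 windows of chemokines that rose, NF-kB was in 2, ISRE in 2, AP-1 in 3, GAS in 1, PU.1 in 2 and TATAAA in 4. Among the 16 other windows the counts in the same order were 5, 1, 0, 1, 5 and 6. Thus 5 of the 7 windows with an NF-kB match belonged to chemokines that were not higher, *Cxcl1*, *Cxcl2* and *Cxcl3* among them. All of these 5 chemokines except *Cxcl1* were below the array median in both groups, so a rise in them could be missed. The windows are few, and the split was not tested. A match is a description of the letters and not evidence of binding.

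Ligands that draw monocytes and macrophages formed the largest set. Of 10 such transcripts 6 rose (60%, against 8.34% of named genes), none fell and 4 did not pass. The median log2 fold change was 1.05. *Ccl6*, a CC chemokine made by myeloid cells, was at log2 intensities of 8.09 and 7.06 with PBS and 11.29, 11.24 and 10.64 with CSF1-Fc. The lowest CSF1-Fc value lay well above the higher PBS value, and the log2 fold change was 3.48 (SE 0.34, 11.2-fold, limma adjusted p = 0.00181). *Ccl2*, the main ligand of CCR2 and a signal for monocytes to leave bone marrow, had log2 intensities of 5.63 and 4.70 against 7.94, 8.03 and 7.65. This was a log2 fold change of 2.71 (SE 0.28, 6.54-fold, limma adjusted p = 0.00232). *Ccl7*, also a CCR2 ligand, was at log2 intensities of 4.76 and 4.72 against 7.70, 7.35 and 6.88, a log2 fold change of 2.57 (SE 0.24, 5.94-fold, limma adjusted p = 0.00145). Both CCR2 ligands were near the array median in PBS livers and far above it in every CSF1-Fc liver.

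The other 3 monocyte ligands that rose changed less. *Ccl3*, a ligand of CCR1, was at log2 intensities of 5.25 and 4.75 with PBS and 7.55, 6.54 and 6.46 with CSF1-Fc, a log2 fold change of 1.85 (SE 0.36, 3.61-fold, limma adjusted p = 0.0261). CSF1-Fc replicate 1 stood above the other treated livers for this gene. *Ccl9*, a CCR1 ligand, was bright already in PBS livers, at log2 intensities of 9.84 and 9.79 against 10.84, 11.01 and 10.72. Its log2 fold change of 1.04 (SE 0.14, 2.05-fold, limma adjusted p = 0.00686) had the smallest error of the rises, and the livers of each group lay close together. *Ccl5*, which draws T cells as well as monocytes, was at log2 intensities of 6.19 and 5.56 against 6.77, 7.25 and 6.81. Its log2 fold change of 1.07 (SE 0.24, 2.10-fold, limma adjusted p = 0.0469) was just past the threshold.

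Close relatives of these ligands did not pass. *Ccl4*, a close relative of *Ccl3* that also draws monocytes, had mean log2 intensities of 4.34 and 4.39 in the PBS and CSF1-Fc livers, with a 95% interval of the log2 fold change from -0.27 to 0.37. *Ccl12*, another CCR2 ligand, had a log2 fold change of 0.34 (95% interval -0.01 to 0.69, limma adjusted p = 0.222) with all CSF1-Fc livers above both PBS livers. For *Ccl8* it was 0.39 (limma adjusted p = 0.33) and for *Cx3cl1*, the membrane-bound ligand of CX3CR1, -0.17 (limma adjusted p = 0.597), and the groups overlapped in both. *Ccl4*, *Ccl12* and *Ccl8* had means below the array median in both groups, so a change in them could be missed. The 3 monocyte markers measured, *Plac8*, *F13a1* and *Vcan*, were all higher, with a summed intensity of 100.2 to 124.1 in PBS livers and 1230 to 1833 in CSF1-Fc livers. The part of such cells in the rise of the monocyte ligands was not tested. Without PBS replicate 1 or without PBS replicate 2, *Ccl3*, *Ccl5* and *Ccl9* lost their calls and 3 of the 10 remained higher.

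Eosinophil chemokines changed through a single member. *Ccl24*, the eotaxin that acts on CCR3, was at log2 intensities of 5.67 and 4.58 with PBS and 9.50, 9.97 and 9.26 with CSF1-Fc. The PBS livers lay more than 1 log2 unit apart, yet the gap to the lowest CSF1-Fc liver was larger still. The log2 fold change was 4.45 (SE 0.35, 21.9-fold, 95% interval 3.59 to 5.31, limma adjusted p = 0.000773). The other eotaxins, *Ccl11* and *Ccl26*, had log2 fold changes of -0.17 (limma adjusted p = 0.536) and 0.11 (limma adjusted p = 0.727) and were dim in both groups. Of 5 eosinophil markers none passed, and their summed intensity was 78.1 to 80.7 in PBS livers and 87.1 to 92.7 in CSF1-Fc livers. The granule genes *Epx*, *Prg2* and *Prg3* and the receptor gene *Il5ra* had means below the array median in both groups. *Siglecf* had means of 4.92 with PBS and 5.29 with CSF1-Fc, a log2 fold change of 0.37 (limma adjusted p = 0.1375). In *Prg2* and *Siglecf*, 40% of the list, all CSF1-Fc livers lay above both PBS livers, against 18.2% of named genes.

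Among 6 neutrophil chemokines *Ppbp* alone rose (16.7%, against 8.34% of named genes) and none fell. *Ppbp*, whose product is cut to a neutrophil attractant and is stored in platelets, was at log2 intensities of 6.66 and 6.04 with PBS and 7.98, 8.08 and 7.37 with CSF1-Fc. Its log2 fold change was 1.46 (SE 0.28, 2.75-fold, limma adjusted p = 0.026), and the call was lost when PBS replicate 2 (limma adjusted p = 0.174) or CSF1-Fc replicate 1 or 2 was left out. *Cxcl1*, a CXCR2 ligand above the array median in both groups, had a log2 fold change of 0.26 (95% interval -0.28 to 0.79, limma adjusted p = 0.557). *Cxcl2*, *Cxcl3*, *Cxcl5* and *Cxcl15* were dim in both groups, with log2 fold changes from -0.21 to 0.13. Neutrophil markers were higher for 9 of 11 genes (81.8%, against 8.34% of named genes), *S100a8*, *S100a9* and *Retnlg* among them. Of these 9, 7 were below the array median in PBS livers. The summed intensity of the 11 went from 242.0 to 334.5 in PBS livers to 2026 to 2364 in CSF1-Fc livers. The part of neutrophils in the rise of *Ppbp* was not tested.

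Ligands for activated T cells and natural killer (NK) cells rose in 2 of 4 cases (50%, against 8.34% of named genes). *Cxcl10*, an interferon-induced ligand of CXCR3, was at log2 intensities of 6.62 and 6.27 with PBS and 8.20, 8.29 and 7.37 with CSF1-Fc, a log2 fold change of 1.50 (SE 0.30, 2.84-fold, limma adjusted p = 0.0298). *Cxcl9*, another CXCR3 ligand, was at log2 intensities of 8.80 and 8.29 against 9.54, 10.15 and 9.58, a log2 fold change of 1.21 (SE 0.25, 2.32-fold, limma adjusted p = 0.0321). All CSF1-Fc livers lay above both PBS livers for each gene, though with CSF1-Fc replicate 3 left out *Cxcl10* had an adjusted p of 0.00498 in limma and with PBS replicate 2 left out 0.199. *Cxcl9* lost its call when either PBS liver or CSF1-Fc replicate 1 was left out.

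*Cxcl16*, a CXCR6 ligand that exists as a membrane and a soluble form, lay at log2 intensities of 6.40 and 6.42 against 6.97, 7.62 and 7.22. Its log2 fold change of 0.86 (95% interval 0.36 to 1.35, limma adjusted p = 0.0541) just missed the threshold, with no overlap of the groups. *Cxcl11*, which is annotated as a transcribed pseudogene in this strain's reference assembly, had a log2 fold change of -0.05 (limma adjusted p = 0.888). Of the markers of the cells these ligands draw, 1 of 6 T cell genes (*Cd3g*) and 1 of 6 NK cell genes (*Gzmb*) passed, both higher. This was 16.7% of each list, against 8.34% of named genes. *Cd3d* and *Cd3e* had log2 fold changes of 0.01 and 0.25, and *Cd4*, lower in every CSF1-Fc liver, -0.51 (limma adjusted p = 0.0763). All CSF1-Fc livers lay above both PBS livers in 50% of the T cell and 100% of the NK cell genes, against 18.2% of named genes. Summed intensity was 155.5 to 156.6 in PBS livers and 181.3 to 194.2 in CSF1-Fc livers for the T cell genes, and 77.2 to 90.8 against 175.6 to 210.9 for the NK cell genes. Their part in the changes of *Cxcl9* and *Cxcl10* was not tested.

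Ligands for dendritic cells, B cells and naive lymphocytes held 2 that rose of 4 (50%, against 8.34% of named genes). *Cxcl13*, the CXCR5 ligand that organises B cell follicles, was at log2 intensities of 7.16 and 6.98 with PBS and 8.65, 8.87 and 8.06 with CSF1-Fc. Its log2 fold change was 1.45 (SE 0.25, 2.74-fold, limma adjusted p = 0.0176), and the call was lost without either PBS liver and without CSF1-Fc replicate 1. *Xcl1*, a ligand of XCR1 on cross-presenting dendritic cells that is made mostly by NK and T cells, was at log2 intensities of 4.57 and 4.24 against 5.12, 5.14 and 4.96. The log2 fold change of 0.67 (SE 0.15, 1.59-fold, limma adjusted p = 0.048) did not hold with any 1 of the 5 livers left out.

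*Ccl19*, a CCR7 ligand with 5 rows on the array, had a log2 fold change of 0.11 (limma adjusted p = 0.846), and *Ccl20*, the CCR6 ligand, -0.26 (limma adjusted p = 0.522). B cell markers were higher for 3 of 4 genes (75%, against 8.34% of named genes), *Cd79a*, *Cd79b* and *Ms4a1*. The summed intensity of the 4 was 122.0 to 129.9 in PBS livers and 345.8 to 385.3 in CSF1-Fc livers. *Cd79a* and *Ms4a1* were below the array median in PBS livers. Dendritic cell markers were higher for 1 of 6, *Cd209a* (16.7%, against 8.34% of named genes), at a sum of 171.4 to 172.8 against 234.7 to 338.5. In 66.7% of these 6 all CSF1-Fc livers lay above both PBS livers, against 18.2% of named genes. *Clec9a*, the brightest of them, had a log2 fold change of 1.23 (limma adjusted p = 0.065). The part of either cell type in the rise of *Cxcl13* or *Xcl1* was not tested.

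Of 4 homeostatic and platelet chemokines 2 rose (50%, against 8.34% of named genes) and none fell. *Pf4*, or platelet factor 4, is held in platelet granules and also made by some macrophages, and it was at log2 intensities of 5.39 and 4.71 with PBS and 8.75, 8.94 and 8.24 with CSF1-Fc. The log2 fold change of 3.60 (SE 0.28, 12.1-fold, 95% interval 2.92 to 4.27, limma adjusted p = 0.000737) had the lowest adjusted p of the 36. Of 4 platelet markers (*Itga2b*, *Gp9*, *Gp5* and *Treml1*) none passed, and their summed intensity was 119.0 to 133.8 in PBS livers and 103.1 to 120.6 in CSF1-Fc livers. *Gp9* and *Gp5* had means below the array median in both groups, so a change in them could be missed. The part of platelets or macrophages in the rise of *Pf4* was not tested. *Cxcl14*, an epithelial and stromal chemokine, was at log2 intensities of 6.34 and 5.74 against 7.32, 7.52 and 7.23. The rise was 1.31 in log2 fold change (SE 0.21, 2.48-fold, limma adjusted p = 0.0133), and the call ended when PBS replicate 2 or CSF1-Fc replicate 1 was dropped.

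*Cxcl12*, the CXCR4 ligand that retains blood stem cells and neutrophils in marrow and is made by stromal cells, was at log2 intensities of 9.11 and 9.44 with PBS and 8.50, 8.64 and 8.81 with CSF1-Fc. All treated livers lay below both controls, but the log2 fold change of -0.62 (95% interval -1.02 to -0.23, limma adjusted p = 0.0741) missed the threshold. *Cxcl17* had the same order of livers at a lower brightness, with a log2 fold change of -0.44 (limma adjusted p = 0.191).

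Homing T cell ligands held the only fall. *Ccl25*, the CCR9 ligand known from thymus and small intestine, was at log2 intensities of 6.86 and 7.01 with PBS and 6.32, 6.32 and 6.46 with CSF1-Fc. The log2 fold change was -0.57 (SE 0.13, limma adjusted p = 0.0487). This call was marginal: a further *Ccl25* row had a log2 fold change of -0.53 (limma adjusted p = 0.0653), and the call was kept in 1 of the 5 fits that left out a liver, the one without CSF1-Fc replicate 3 (limma adjusted p = 0.0497). *Ccl1*, *Ccl17*, *Ccl22* and *Ccl28*, ligands of CCR8, CCR4 and CCR10, were dim in both groups. Their log2 fold changes ran from -0.13 to 0.35, and the groups overlapped in all 4.

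Chemokine genes lie in tandem arrays, and most groups of neighbours held genes that passed beside genes that did not. In the order of the GRCm38.p6 annotation, 6 groups of neighbouring members had at most 2 other genes between one member and the next. On chromosome 11, *Ccl2* and *Ccl7* were higher while *Ccl11*, *Ccl12*, *Ccl8* and *Ccl1*, which follow them, did not pass. In the next group on that chromosome *Ccl5*, *Ccl9*, *Ccl6* and *Ccl3* were higher and *Ccl4*, at its end, did not pass. On chromosome 5, the adjacent *Ppbp* and *Pf4* were higher and lay between *Cxcl5* on one side and *Cxcl3*, *Cxcl15*, *Cxcl1* and *Cxcl2* on the other, of which none passed. Also on chromosome 5, *Cxcl9* and *Cxcl10* were higher beside *Cxcl11*, and *Ccl24* was higher beside *Ccl26*. The group *Ccl22*, *Cx3cl1* and *Ccl17* on chromosome 8 held no call. Of the neighbours that did not pass, *Cxcl1*, *Cxcl11* and *Cx3cl1* were above the array median in both groups. All others were below it in both, so a change in them could be missed.

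**Figure D3:**
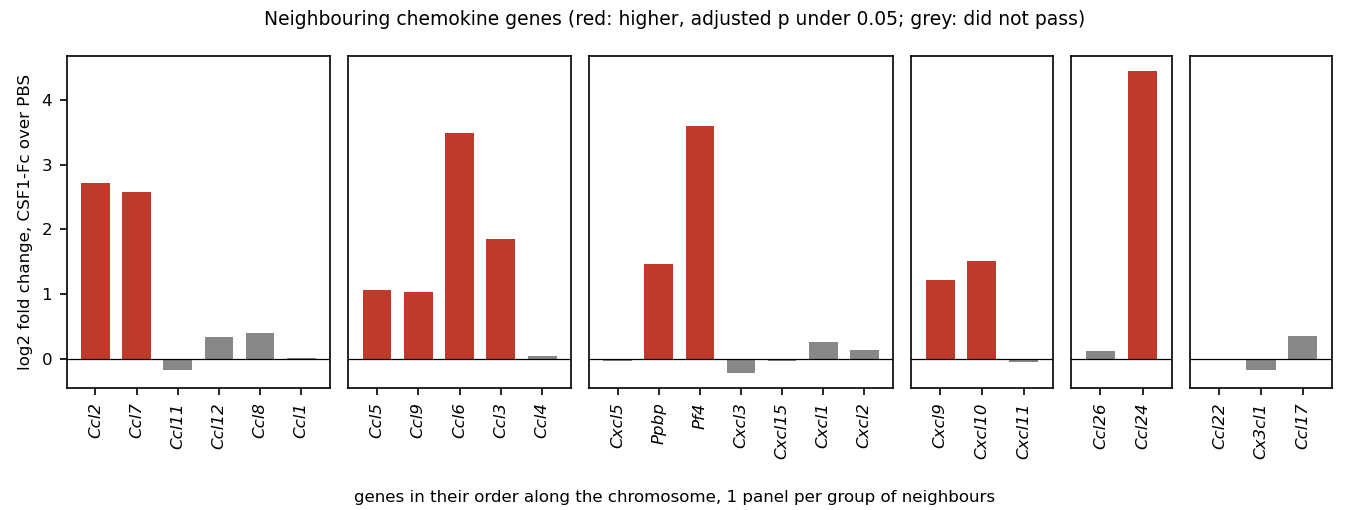
Log2 fold change of CSF1-Fc over PBS (y axis) for the 6 groups of neighbouring chemokine genes, with 1 panel per group and genes in their order along the chromosome (x axis). Red bars passed the test and were higher, and grey bars did not pass. *Pf4* stands at 3.60 beside *Cxcl3* at -0.21, and *Ccl24* at 4.45 beside *Ccl26* at 0.11. *Cxcl3* and *Ccl26* were dim in both groups.

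The receptors of these ligands were analysed for 22 genes. Of these, 6 rose (27.3%, against 8.34% of named genes) and none fell. In 11, or 50%, all CSF1-Fc livers lay above both PBS livers, against 18.2% of named genes. *Ccr2*, the receptor of *Ccl2* and *Ccl7* on monocytes, was at log2 intensities of 4.74 and 4.46 with PBS and 8.26, 7.80 and 8.49 with CSF1-Fc, a log2 fold change of 3.58 (SE 0.23, 12.0-fold, limma adjusted p = 0.00045). *Cx3cr1*, the receptor of *Cx3cl1* on monocytes and macrophages, was at log2 intensities of 4.99 and 4.74 against 7.84, 7.12 and 7.52, a log2 fold change of 2.63 (SE 0.23, 6.19-fold, limma adjusted p = 0.00106). *Ccr2* and its ligands *Ccl2* and *Ccl7* were higher while its ligand *Ccl12*, dim in both groups, did not pass. *Cx3cr1* was higher while its ligand did not pass.

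*Ccr3*, the eotaxin receptor, was at log2 intensities of 4.39 and 4.16 with PBS and 6.37, 5.50 and 5.40 with CSF1-Fc, a log2 fold change of 1.48 (SE 0.30, limma adjusted p = 0.0329). *Cxcr2*, the neutrophil receptor, was at log2 intensities of 3.77 and 3.45 against 4.82, 4.69 and 5.40, a log2 fold change of 1.36 (SE 0.24, limma adjusted p = 0.0201). *Ccr1*, a receptor of *Ccl3* and *Ccl9*, was at log2 intensities of 3.70 and 3.58 against 5.21, 4.57 and 4.96, a log2 fold change of 1.27 (SE 0.20, limma adjusted p = 0.014). All 6 receptors that rose were below the array median in PBS livers, and *Cxcr2* and *Ccr1* in both groups, so the sizes of these rises are uncertain. With a pseudocount of 16 the log2 fold change was 2.93 for *Ccr2* and 2.12 for *Cx3cr1*. *Cxcr4*, the receptor of *Cxcl12*, was at log2 intensities of 4.41 and 4.40 against 5.04, 5.35 and 5.09, a log2 fold change of 0.76 (SE 0.15, limma adjusted p = 0.0254). It rose while the transcript of its ligand was lower in every treated liver without passing the test. Without PBS replicate 1 or without PBS replicate 2 the receptor calls were 2, those of *Ccr2* and *Cx3cr1*. The receptors of lymphocyte ligands, *Cxcr3*, *Cxcr5*, *Cxcr6*, *Ccr4*, *Ccr6*, *Ccr7*, *Ccr8*, *Ccr9*, *Ccr10* and *Xcr1*, did not pass, with log2 fold changes from -0.20 to 0.63. All of these except *Cxcr3* and *Ccr7* were below the array median in both groups, so a change in them could be missed. In *Cxcr3*, *Cxcr5* and *Ccr7* all CSF1-Fc livers lay above both PBS livers, and in *Ccr9* all lay below.

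**Figure D4:**
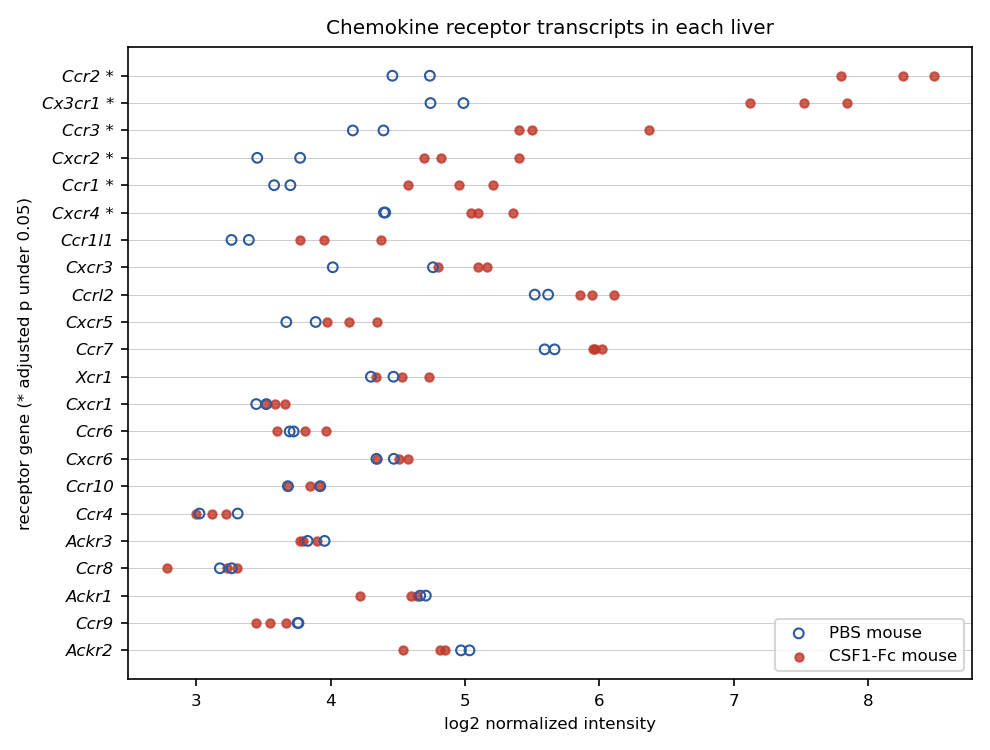
Log2 normalized intensity (x axis) of 22 chemokine receptor transcripts (y axis) in each liver, with open circles for the 2 PBS mice and filled circles for the 3 CSF1-Fc mice. An asterisk marks the 6 that passed the test, of which *Ccr2* and *Cx3cr1* show the widest gaps between the groups.

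Cytokines that induce chemokine transcription were examined as well. Of 10 measured, 3 rose (30%, against 8.34% of named genes) and none fell. *Il1a* had a log2 fold change of 1.52 (SE 0.17, limma adjusted p = 0.00307), *Tnf* 1.30 (SE 0.23, limma adjusted p = 0.0203) and *Il6* 0.91 (SE 0.16, limma adjusted p = 0.0208), the last from means of 3.33 and 4.24 that were below the array median. *Il1a* was called whichever liver was left out, and the calls of *Tnf* and *Il6* ended when either PBS liver or CSF1-Fc replicate 1 was left out. Their close partner *Il1b* had a log2 fold change of 0.02 (limma adjusted p = 0.963). *Ifng*, the chief inducer of *Cxcl9*, was dim in both groups and had a log2 fold change of 0.21 (limma adjusted p = 0.522).

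Individual livers kept a similar order across the chemokines that rose. PBS replicate 1 was above PBS replicate 2 in 14 of 14, with a median gap of 0.55 on the log2 scale, whereas among the 1570 named genes that were higher the same order held in 67.1%. CSF1-Fc replicate 3 was the lowest treated liver in 12 of 14, against 34.9% of the higher named genes. In linear intensity the 14 summed to 2361 and 1852 in the PBS livers and to 8116, 9049 and 6257 in the CSF1-Fc livers. Since these 14 were chosen by their calls, the gap between the groups in the sum is a description. *Ccl24*, *Pf4*, *Ccl6*, *Ccl2* and *Ccl7* were called whichever liver was left out. *Ccl5* and *Xcl1* were called in none of the 5 such fits, *Cxcl10* in 1, *Cxcl9*, *Cxcl13* and *Ppbp* in 2, and *Ccl3*, *Ccl9* and *Cxcl14* in 3. Leaving out PBS replicate 1 or CSF1-Fc replicate 1 left 7 chemokines higher, PBS replicate 2 left 5, CSF1-Fc replicate 2 left 10 and CSF1-Fc replicate 3 left 12.

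**Figure D5:**
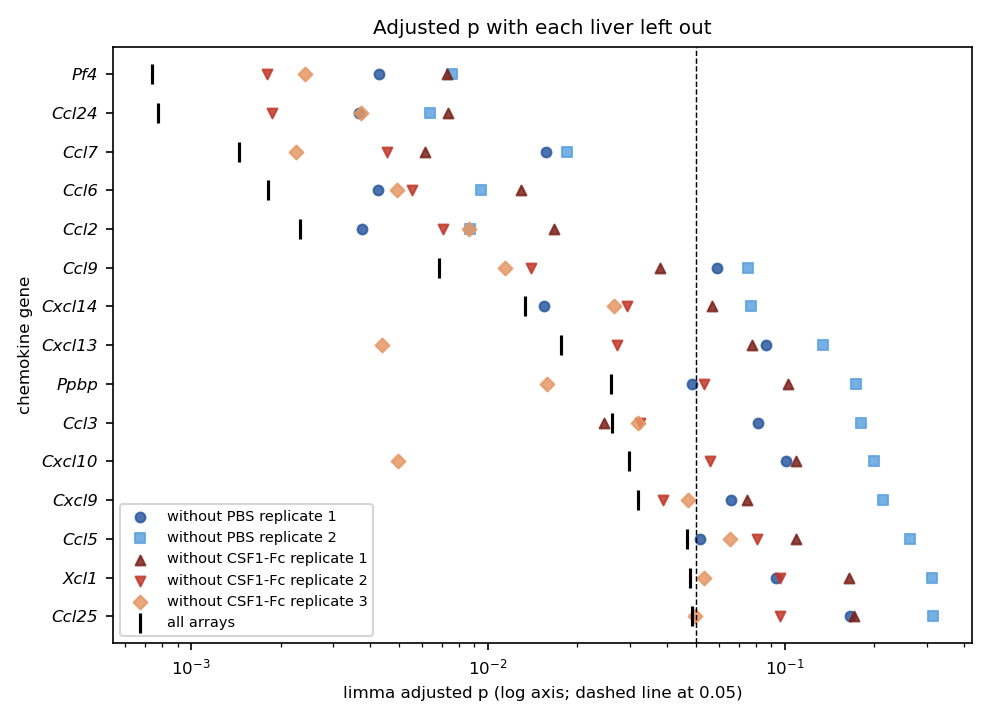
Adjusted p from limma (x axis, log scale, dashed line at 0.05) for the 15 chemokine transcripts that passed the test (y axis), with a bar for all arrays and a symbol for each fit without 1 liver. The symbols of *Pf4*, *Ccl24*, *Ccl7*, *Ccl6* and *Ccl2* stay left of the line, and those of *Ccl5* and *Xcl1* lie right of it.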

How the data were processed

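The arrays held whole-liver RNA, 1 mouse per array, from 2 PBS and 3 CSF1-Fc mice. RNA was amplified with the NuGEN Pico kit; the study's methods name RNA Bee for extraction and the sample labels name Trizol. The deposited values are intensities on a linear scale, already normalized by the authors; how they did so was not stated in the labels or the methods. The study names Partek Genomics Suite, and the submitters' processing notes name Expression Console 1.1.

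Log2 of the intensities was fitted, without a pseudocount, in limma 3.58.1 under R 4.3.3 (lmFit, 1 mean per group, eBayes, 3 residual and 3.34 prior degrees of freedom), with Benjamini-Hochberg adjustment over 35556 rows. No test was named for the arrays in the study's methods. Of the rows, 21218 carried 1 symbol, 1881 several and 12457 none in the platform annotation, and 1386 genes had several rows. The replicate numbers of the labels gave no evidence of pairing. No label ties a liver to a batch. The members and gene lists were chosen with earlier results of these data known. Every member could be named, values per array were given for those past the threshold, receptors and cytokines were named when they passed, and other genes were named to show a range, a marker or a partner after their values were seen. At most 3 genes of a marker list were named, except for 4 each of the hepatocyte, T cell and platelet lists and 5 of the eosinophil list. Listed genes without a row of their symbol alone were left out, and some items are not reported here. Marker lists of endothelial (1 higher, 1 lower of 6), stellate (1 higher of 8) and cholangiocyte genes (0 of 4) were also examined. Of all named genes 8.34% were higher and 3.95% lower.

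The other settings tried were array weights (with statmod 1.5.0), centring each array on its median or on hepatocyte genes, quantile normalization, rows above the median only, rows with 1 symbol, a pseudocount of 16, the mean over a gene's rows, moderation with a trend and robust, ordinary standard errors, the replicate number taken as a block, leaving out each liver, an adjusted p of 0.01 and a log2 fold change of at least 1. The fit was tested on simulated data. Promoters and gene order are from RefSeq (GRCm38.p6). Arrays have no sequencing depth, and precision is limited by there being 5 of them.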

Additional observations from a re-analysis of the deposited data

How the results depend on the processing

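The 14 chemokines counted as higher were 8 with a pseudocount of 16, 0 without moderation, 6 at an adjusted p of 0.01, and 5 to 12 with a liver left out. The 1 lower was 2 among rows above the median, with 1 symbol or with array weights, and 0 with centring on the array median or on hepatocyte genes, the mean over rows, a trend with robust moderation, no moderation, an adjusted p of 0.01 or a log2 fold change of at least 1, and 0 to 1 with a liver left out. Rows above the median held 20 of the 36. No moderation gave 0 for every set of ligands, for receptors and for cytokines. Leaving out a liver gave 3 to 5 of the monocyte ligands, 0 to 1 of the neutrophil, 0 to 2 of the T and NK cell, 0 to 1 of the dendritic and B cell, 1 to 2 of the homeostatic ligands, 2 to 6 receptors and 1 to 3 cytokines. A pseudocount of 16 left 0 neutrophil, 0 T and NK cell and 1 dendritic and B cell ligands. At an adjusted p of 0.01 there were 0, 0 and 0 of these, 1 homeostatic ligand, 2 receptors and 1 cytokine. The dendritic and B cell count was 1 with centring on the array median, rows above the median, a trend with robust moderation or a log2 fold change of at least 1, and receptors were 3 among rows above the median.

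The replicate numbers gave no evidence of pairing, as deviations of same-numbered livers correlated at -0.0725 and -0.249. With 2 PBS livers the deviations of one mirror those of the other, so this check cannot exclude pairing. With the replicate block 11 chemokines were higher and 0 lower, 1 of them a T and NK cell ligand and 1 a dendritic and B cell ligand. Direction turned in 7 uncalled, near-zero chemokines, in log2 fold change. *Ccl22* was 0.0812 with quantile normalization, 0.00599 centred on the array median and 0.0904 centred on hepatocyte genes. *Cxcl15* and *Cxcl5* were 0.0194 and 0.0509 with quantile normalization and 0.0637 and 0.0607 on hepatocyte genes, and *Cxcl5* was 0.0454 with array weights. *Ccl1* and *Ccl4* were -0.0694 and -0.0492 with array weights, and *Cxcl11* was 0.0481 on hepatocyte genes. With a liver left out *Ccl1* ranged from -0.107 to 0.0827, *Ccl19* from -0.0335 to 0.322, *Ccl22* from -0.0684 to 0.0607 and *Cxcl11* from -0.136 to 0.0437. The cause of these shifts was not tested. The remaining alternatives changed no called direction. The median log2 fold change of all rows was -0.08, -0.04, -0.07 and 0.02 under the deposited, quantile, median and hepatocyte scaling.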

Other observations

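Rows shared by several chemokine symbols were outside the rule and are given as values. The 4 rows annotated to *Ccl21a*, *Ccl21b*, *Ccl21c* and *Gm1987*, nearly identical copies of the CCR7 ligand of lymphatic vessels, held identical values. They were at log2 intensities of 7.07 and 6.89 with PBS and 6.18, 5.79 and 5.92 with CSF1-Fc, a log2 fold change of -1.02 (SE 0.16, limma adjusted p = 0.0133), and the copies cannot be told apart. Of 4 rows shared by *Ccl27a* and other symbols none passed, with log2 fold changes from -0.99 to -0.47. A row shared by *Cxcl16* and *Zmynd15* was lower in every CSF1-Fc liver, with a log2 fold change of -0.35 (limma adjusted p = 0.203), where the row of *Cxcl16* alone had 0.86.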
